A study of Homo sapiens with 60 samples.

Results

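The immediate early transcription factors described here are 10 genes: FOS, JUN, JUNB, JUND, EGR1, ATF3, IER2, KLF6, KLF4 and MYC. They were found by symbol among the Ensembl row identifiers of the deposited count table, and all 10 members were present among 60675 genes and passed the filter on low counts that left 16356 genes. HT29 cells, an established line from a human colorectal adenocarcinoma, were exposed for 24 h to water extracts of herbal drugs used as tonics. The groups of 3 libraries were the DMSO vehicle and 6 extracts at 500, 100 and 20 µg/mL. The single herbs were Cinnamomi Cortex, Astragali Radix, Cnidii Rhizoma and Rehmanniae Radix Preparata, while Samul-tang and Sagunja-tang are formulae of several herbs. That gave 19 groups and 57 libraries, and Paeoniae Radix had 1 library at each dose. The same untreated line with the same culture conditions underlies every group, and no allele or transgene was involved. The labels do not say whether the 3 libraries of a group came from separate cultures, so the p-values measure the spread between libraries, which may be technical.

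Immediate early genes are switched on within minutes of a growth factor, cytokine or stress signal without new protein synthesis, mainly through kinases acting on factors already sitting at their promoters, and most of their transcripts decay quickly afterwards. FOS and the JUN proteins pair to form AP-1, ATF3 is a stress-induced relative that pairs with them, EGR1 is a zinc finger factor downstream of ERK, KLF4 and KLF6 are zinc finger factors of the gut epithelium, IER2 is a small nuclear protein, and MYC drives growth and is kept high in colorectal cancer by WNT signalling. At 24 h the libraries therefore report sustained levels; the early peak was not sampled.

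The starts of the 5 members that were higher in Cinnamomi Cortex at 500 µg/mL and of EGR1, whose level followed FOS, are shown to set out what the promoters share. Each line holds the 250 bases before a transcription start in the RefSeq table for GRCh38.p14, 5′ to 3′ on the gene's strand, with capitals marking matches to the motifs named after the sequences. The regions are chr14:75278578-75278827 on the plus strand for FOS, chr1:58784048-58784297 on the minus strand for JUN, chr1:212565157-212565406 on the plus strand for the first of 2 listed ATF3 starts, chr9:107489770-107490019 on the minus strand for KLF4, chr10:3785210-3785459 on the minus strand for KLF6 and chr5:138465229-138465478 on the plus strand for EGR1.
FOS: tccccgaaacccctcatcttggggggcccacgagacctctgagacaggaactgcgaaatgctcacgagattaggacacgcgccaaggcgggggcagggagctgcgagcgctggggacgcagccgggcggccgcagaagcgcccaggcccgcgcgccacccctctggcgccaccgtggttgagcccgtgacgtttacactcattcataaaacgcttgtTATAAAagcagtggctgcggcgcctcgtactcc
JUN: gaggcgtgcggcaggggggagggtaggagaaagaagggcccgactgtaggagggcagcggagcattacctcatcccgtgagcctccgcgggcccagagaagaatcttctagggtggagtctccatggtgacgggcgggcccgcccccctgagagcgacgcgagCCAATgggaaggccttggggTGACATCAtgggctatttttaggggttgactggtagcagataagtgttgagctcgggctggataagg
ATF3: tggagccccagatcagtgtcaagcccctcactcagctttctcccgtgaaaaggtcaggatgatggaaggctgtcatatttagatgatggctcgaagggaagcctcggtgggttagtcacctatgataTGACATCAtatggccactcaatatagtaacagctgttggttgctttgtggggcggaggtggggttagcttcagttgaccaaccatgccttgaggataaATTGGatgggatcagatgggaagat
KLF4: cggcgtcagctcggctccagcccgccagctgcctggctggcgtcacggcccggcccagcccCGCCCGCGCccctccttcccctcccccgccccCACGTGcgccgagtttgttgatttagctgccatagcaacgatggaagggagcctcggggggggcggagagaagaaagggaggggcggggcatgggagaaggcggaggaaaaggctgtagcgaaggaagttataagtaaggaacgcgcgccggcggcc
KLF6: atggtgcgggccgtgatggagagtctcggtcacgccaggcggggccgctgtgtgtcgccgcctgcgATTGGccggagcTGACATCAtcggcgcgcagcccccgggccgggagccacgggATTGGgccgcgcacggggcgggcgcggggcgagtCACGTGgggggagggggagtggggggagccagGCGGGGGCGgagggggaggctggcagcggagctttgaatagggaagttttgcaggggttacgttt
EGR1: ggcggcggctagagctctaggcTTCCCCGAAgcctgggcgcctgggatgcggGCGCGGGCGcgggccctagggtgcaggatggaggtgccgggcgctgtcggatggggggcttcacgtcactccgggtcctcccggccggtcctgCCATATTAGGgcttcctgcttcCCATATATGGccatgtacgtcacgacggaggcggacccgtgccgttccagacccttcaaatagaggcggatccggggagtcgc

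A promoter sequence was present for 9 of the 10 members, 10 promoters in all. The windows searched ran from 250 bases before to 50 after the start, on both strands, and the background is the share of 35116 RefSeq promoters of that length with at least 1 match. Within these windows EGR1 was the one member with the CArG box bound by SRF, with copies beginning 105 and 83 bases before the start, against 1.3% of promoters. Sites further upstream were not searched, so the other members may have such a box outside the window. JUND was the one member with the full cyclic AMP response element TGACGTCA, at 200 bases before the start, against 1.8%. The shorter core TGACG, which is part of that element, was found in 7 of 9 members against 24.6%, and is left in lower case where it stands alone. The octamer TGACATCA lay 67 bases before the start in JUN, 123 in ATF3 and 172 in KLF6, so in 3 of 9 members against 2.6%. This octamer was searched only after the member promoters had been read, in addition to a first set of 11 motifs, so its count was chosen with the sequences in view. No member window held the AP-1 site TGANTCA (7.7% of promoters). Of the other motifs, the GC box GGGCGG was in 7 members against 45.0%, CCAAT in 5 against 34.6%, GCGNGGGCG of EGR factors in 3 against 9.4%, TATAAA in 3 against 11.5%, the E-box CACGTG in 2 (KLF4 and KLF6) against 7.3%, TGACNNNGC in 1 (JUND) against 13.3%, and TTCNNNGAA in 1 (EGR1) against 7.7%. GC box matches are not in capitals. The ATF3 match to TATAAA lay 230 bases before its second listed start, which is not printed. ATF3 was counted if either of its 2 starts matched, while the background counts single promoters. A match describes letters in a window and is no evidence of a bound factor.

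Per length, the members spanned a wide range in vehicle cells. In TPM, a share of transcripts corrected for gene length and depth that was computed here from the deposited counts and the gene models' exon lengths, MYC stood at 291.9 ± 10.6 (SD, n = 3), the 98.2nd percentile of the tested genes that had a length. JUNB (83.8 ± 10.2), JUND (66.2 ± 1.46), KLF6 (52.2 ± 2.06) and JUN (47.9 ± 2.07) followed, all at or above the 83.5th percentile. IER2 was at 33.4 ± 2.50 and EGR1 at 30.1 ± 3.58. FOS was at 13.4 ± 1.44, KLF4 at 6.97 ± 0.927 and ATF3 at 1.49 ± 0.195, the 20.9th percentile. The vehicle libraries of IER2 and EGR1 overlapped, and each other neighbouring pair in this order did not, KLF6 and JUN only narrowly (lowest KLF6 library 50.2, highest JUN library 49.8).

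Library totals ran from 20459346 to 36253747 counts, and ATF3, the scarcest member, had 37 to 113 counts a library across all 60 libraries. Libraries were grouped here into 2 sets by their sample codes, and this joining of codes was a choice that the labels do not state. A first set of 27 holds all vehicle, Cnidii Rhizoma and Rehmanniae Radix Preparata libraries and the replicate 1 libraries of Astragali Radix and Cinnamomi Cortex. A second set of 30 holds the remaining libraries of those 2 extracts and every formula library. The labels do not say what the codes stand for. The vehicle libraries have a code prefix of their own that no treated library shares. In every comparison with the vehicle, treatment and this prefix cannot be told apart, and the grouping into sets does not separate them. CPM is the count scaled to the library's normalised total and carries no length correction. The sums over marker lists were instead scaled to the library total without that normalisation. All 10 colon epithelium markers were measured (10330 to 13350 CPM in sum), while fibroblast and endothelial lists summed to at most 2.84 and 2.45 CPM. Of 6 leukocyte markers PTPRC and CD3E had at most 10 counts in any library; the list's sum (1296 to 1684 CPM) was nearly all lysozyme, LYZ, at 1470 ± 20.1 CPM in the vehicle.

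**Figure D1:**
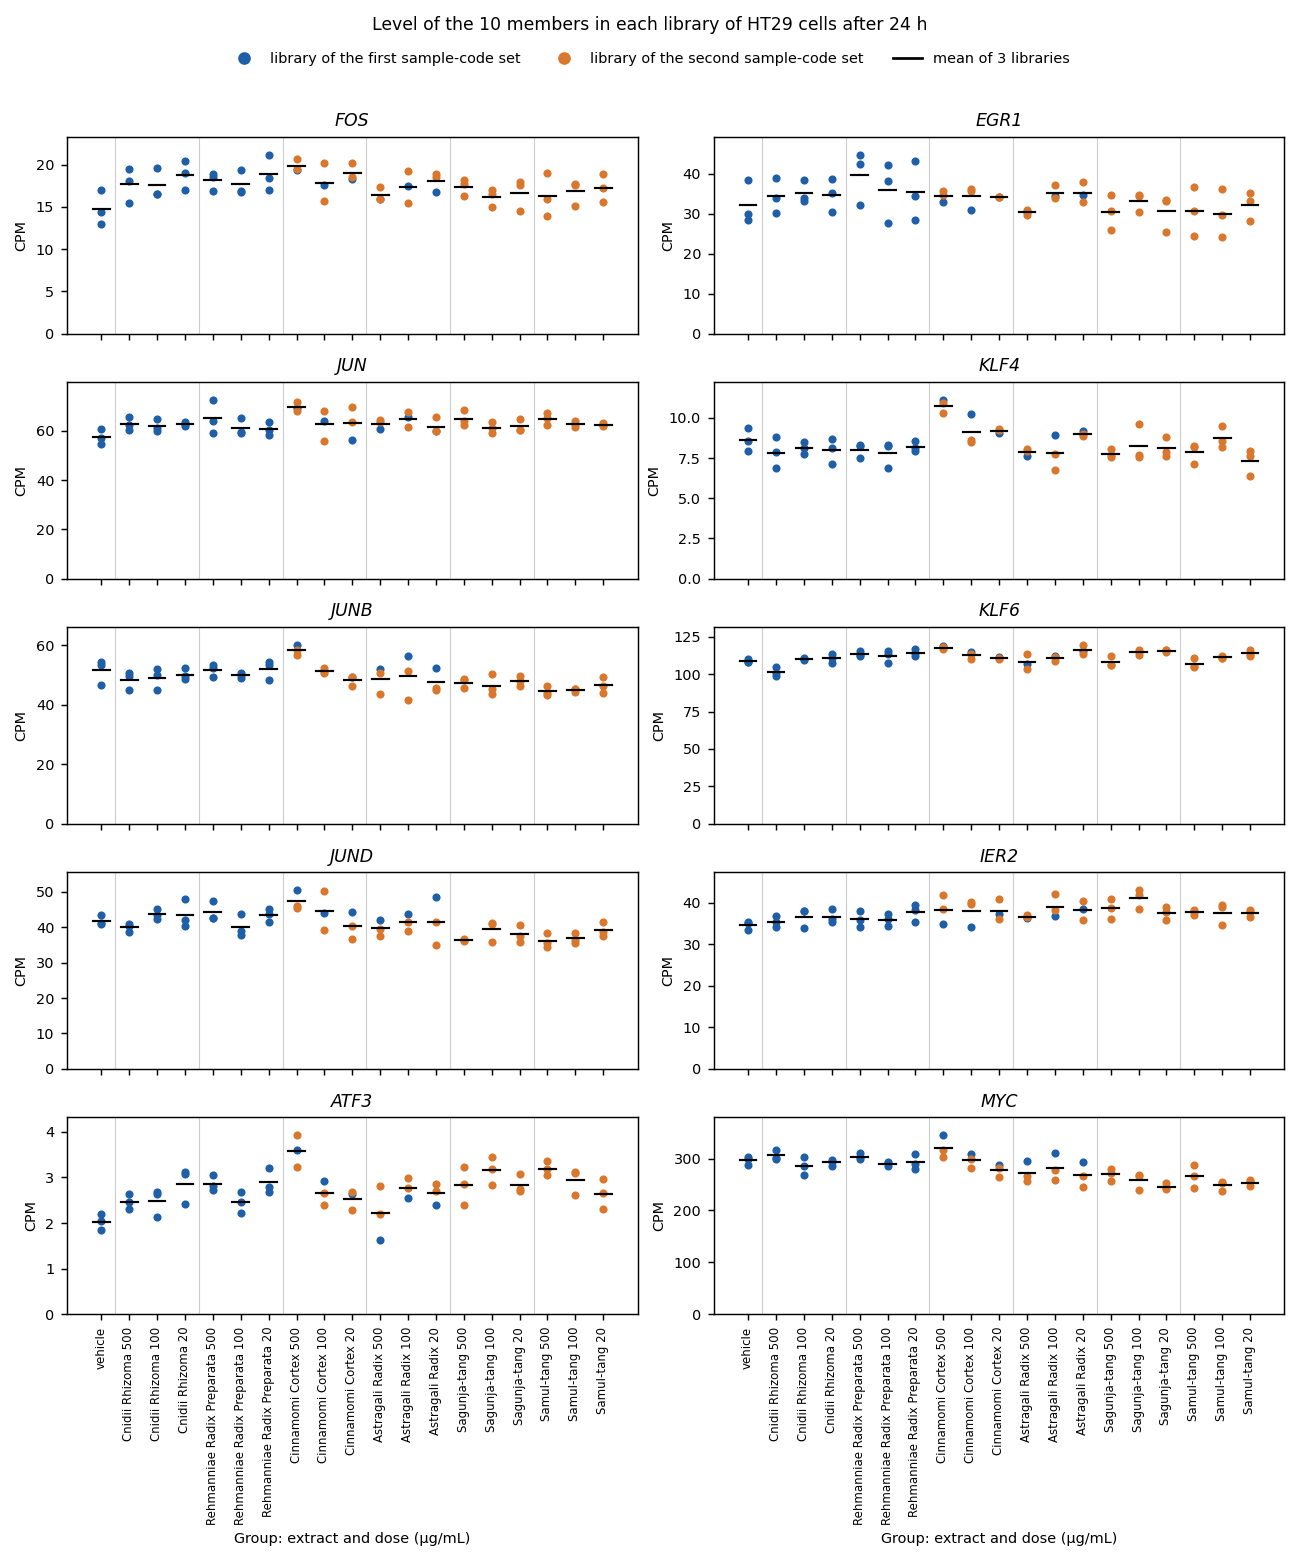
Level of each member in CPM (linear axis from 0) in every library of the 19 groups, coloured by sample-code set, with a bar at the mean of 3 libraries. Cinnamomi Cortex at 500 µg/mL has the highest mean for 8 of the 10 genes, and the vehicle the lowest for FOS, JUN, ATF3 and IER2.

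Across the 19 groups the members moved little: the highest group mean exceeded the lowest by 1.16-fold for KLF6 to 1.77-fold for ATF3, with the other 8 between 1.19-fold and 1.47-fold. Cinnamomi Cortex at 500 µg/mL held the highest mean of FOS, JUN, JUNB, JUND, ATF3, KLF4, KLF6 and MYC. EGR1 was highest in Rehmanniae Radix Preparata at 500 µg/mL and IER2 in Sagunja-tang at 100 µg/mL. Ordered by mean, neighbouring groups overlapped for nearly every step; the exceptions were JUNB and KLF4, where the 3 Cinnamomi Cortex 500 libraries lay above all of the next group, and KLF6, where all 3 Cnidii Rhizoma 500 libraries lay below the next. At the other end, the vehicle had the lowest mean of all 19 groups for FOS, JUN, ATF3 and IER2. Of 54 treated libraries, 52 exceeded every vehicle library for ATF3, 46 for IER2, 39 for JUN and 33 for FOS. The same 3 vehicle libraries enter each of these comparisons, so the counts are not independent of one another. Their code prefix is shared with no treated library, so treatment and code prefix cannot be told apart here. How many of all tested genes are also highest in Cinnamomi Cortex 500 or lowest in the vehicle was not counted. The pattern is therefore not read as particular to these members.

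Against the vehicle, tested with edgeR's quasi-likelihood test at a Benjamini-Hochberg adjusted p under 0.05 within each comparison, 12 of 180 member results were higher and 6 lower over 18 comparisons. Over all genes tested in those comparisons 7.78% of results were called (4.27% higher, 3.51% lower), so the members' totals of 18 calls lie near the background. The calls were concentrated in 1 extract and the 2 formulae, taken in turn below.

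Cinnamomi Cortex, the bark of cinnamon, at 500 µg/mL raised 5 members above the vehicle and lowered none, where 12.9% of all tested genes were called (6.22% higher). All 10 members had a fold change above 0, with a median log2 of 0.18 against 0.00 over all genes tested, and 7 of the 10 had all 3 treated libraries above all vehicle libraries, as did 12.8% of all tested genes. ATF3, the stress-induced repressor and activator of the ATF family, read 2.20, 2.04 and 1.86 CPM in the vehicle and 3.61, 3.23 and 3.93 CPM in the extract. The groups did not overlap, and the log2 difference was 0.80 (SE 0.14, edgeR adjusted p = 5.4e-05). FOS, which binds DNA mainly as a partner of JUN proteins, read 14.4, 13.0 and 17.0 CPM against 19.3, 19.5 and 20.6 CPM. Every treated FOS library lay above the vehicle, by 0.43 on the log2 scale (SE 0.11, edgeR adjusted p = 0.0053). JUN, the FOS partner, read 57.1, 54.7 and 60.7 CPM against 69.4, 68.0 and 71.8 CPM, with no overlap. Its log2 difference was 0.28 (SE 0.06, edgeR adjusted p = 0.0019). KLF4, a factor of differentiated gut epithelium, read 9.39, 8.54 and 7.92 CPM against 11.1, 10.3 and 10.9 CPM, higher in each treated library by 0.31 (SE 0.10, edgeR adjusted p = 0.025). KLF6 had the smallest of these differences, 108.5 ± 1.09 against 117.7 ± 1.06 CPM (SD, n = 3), a log2 of 0.12 (SE 0.03, edgeR adjusted p = 0.012) from groups that did not overlap.

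The remaining 5 members did not pass the test there. JUNB, which often opposes JUN in growth control, differed by 0.18 (SE 0.07, edgeR adjusted p = 0.11), JUND by 0.18 (SE 0.08, 0.16), IER2 by 0.14 (SE 0.07, 0.15), MYC by 0.11 (SE 0.06, 0.24) and EGR1 by 0.10 (SE 0.15, 0.72). With the sample-code set added as a term, JUNB (0.26), JUND (0.28) and MYC (0.21) also passed, for 8 members higher. With the replicate number as a further term EGR1 passed too (0.295, SE 0.075, edgeR adjusted p = 0.0057), for 9 members higher. The shares of all genes given for this comparison belong to the fit without these terms. The FOS call was lost when vehicle replicate 2 was left out (edgeR adjusted p = 0.062). The KLF4 call was lost without vehicle replicate 2 or 3 or Cinnamomi Cortex 500 replicate 1 or 3 (largest adjusted p = 0.13). The calls on JUN, ATF3 and KLF6 held without each of the 6 libraries. Without added terms no member passed against the vehicle at 100 µg/mL (8.08% of genes called) or 20 µg/mL (1.71%). There 3 and 4 had an unadjusted p under 0.05, and FOS came nearest, at 0.37 at 20 µg/mL (edgeR adjusted p = 0.068). With the replicate number as a block FOS was called higher at 100 and 20 µg/mL (0.272 and 0.365, edgeR adjusted p = 0.016 and 0.0025). With the set term added to the block EGR1 was also called at 100 µg/mL (0.286, edgeR adjusted p = 0.031).

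**Figure D2:**
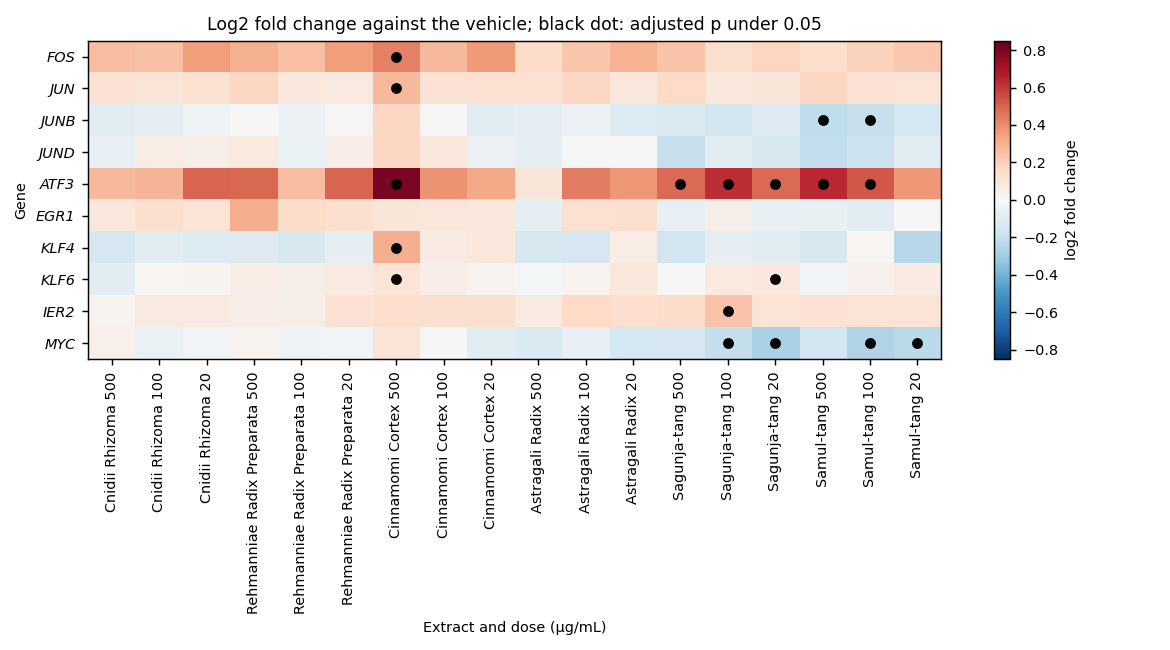
Log2 fold change of each member (rows) against the vehicle in the 18 extract and dose groups (columns), red for higher and blue for lower, with a black dot where the edgeR adjusted p was under 0.05. The Cinnamomi Cortex 500 column has 5 dots, ATF3 is red in all 18 columns, and the MYC and JUNB dots sit only in formula columns.

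The dose step within Cinnamomi Cortex uses no vehicle library and sets equal numbers from each sample-code set against each other. From 20 to 500 µg/mL 3 members rose and none fell, where 10.2% of genes were called (4.60% higher), and the median of the 10 members was 0.18 against 0.00 over all genes. ATF3 rose from 2.65, 2.68 and 2.28 CPM to the 500 µg/mL values above, without overlap, by 0.48 (SE 0.14, edgeR adjusted p = 0.014). JUNB rose from 49.5, 49.3 and 46.3 CPM to 60.1, 58.3 and 56.7 CPM, also without overlap, by 0.27 (SE 0.07, edgeR adjusted p = 0.011). MYC rose from 286.9, 281.7 and 265.1 CPM to 344.7, 316.1 and 302.5 CPM by 0.21 (SE 0.06, edgeR adjusted p = 0.02), again without overlap. FOS, called against the vehicle, read 18.2, 18.5 and 20.2 CPM at 20 µg/mL and 19.3, 19.5 and 20.6 CPM at 500 µg/mL, overlapping groups with a log2 difference of 0.06 (SE 0.11, edgeR adjusted p = 0.78). All 3 calls were lost without Cinnamomi Cortex 20 replicate 3. Leaving out Cinnamomi Cortex 500 replicate 1 also ended those on JUNB and MYC, and leaving out Cinnamomi Cortex 500 replicate 3 that on ATF3.

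Of the 9 matched-dose comparisons between extracts, the one with the most member calls was with Astragali Radix, the root extract whose libraries share the first number of their sample codes with Cinnamomi Cortex and are split between the sets in the same way. At 500 µg/mL 6 members were higher in Cinnamomi Cortex and none lower, where 10.8% of genes were called (4.97% higher). The member median was 0.24 against −0.01 over all genes, and 9 of 10 members, all but IER2, had every Cinnamomi Cortex library above every Astragali Radix library, as did 11.1% of all tested genes. ATF3 read 3.61, 3.23 and 3.93 CPM in Cinnamomi Cortex and 1.63, 2.82 and 2.20 CPM in Astragali Radix, a difference of 0.70 (SE 0.14, edgeR adjusted p = 0.00033). KLF4 read 11.1, 10.3 and 10.9 CPM against 7.61, 8.08 and 7.97 CPM, a difference of 0.45 (SE 0.10, edgeR adjusted p = 0.001). Of all 10 members these 2 had the largest differences, and both calls held without each of the 6 libraries. MYC (0.23, SE 0.06, edgeR adjusted p = 0.0076), JUNB (0.26, SE 0.07, 0.016), JUND (0.25, SE 0.08, 0.037) and KLF6 (0.12, SE 0.03, 0.0079) were also higher. FOS (0.27, SE 0.11) and JUN (0.15, SE 0.06), called against the vehicle, did not pass here (edgeR adjusted p = 0.098 and 0.13). Leaving out Cinnamomi Cortex 500 replicate 1 ended the calls on JUNB, JUND and MYC; Astragali Radix 500 replicate 2 those on JUNB, JUND and KLF6; Astragali Radix 500 replicate 3 those on JUND and MYC; and Cinnamomi Cortex 500 replicate 2 that on JUND.

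At 100 µg/mL (0.0673% of genes called) and 20 µg/mL (0% called) no member differed between these extracts by edgeR, with 1 member at an unadjusted p under 0.05 at each dose. The change of the difference with dose was tested as an interaction, 500 minus 20 in Cinnamomi Cortex less the same in Astragali Radix. ATF3 (0.75, SE 0.20, edgeR adjusted p = 0.024) and KLF6 (0.19, SE 0.05, edgeR adjusted p = 0.0081) passed, where 2.57% of genes did. KLF6 read 115.5, 119.4 and 113.4 CPM in Astragali Radix at 20 µg/mL and 106.6, 103.7 and 113.7 CPM at 500 µg/mL, while in Cinnamomi Cortex it read 111.3, 110.6 and 109.8 CPM and 118.6, 116.5 and 118.0 CPM. Within an extract neither step of KLF6 was called: the difference was −0.10 (SE 0.03, edgeR adjusted p = 0.45, overlapping groups) in Astragali Radix and 0.09 (SE 0.03, edgeR adjusted p = 0.067, no overlap) in Cinnamomi Cortex. The ATF3 call was lost without any of 6 of the 12 libraries (Astragali Radix 500 replicates 1 and 3, Astragali Radix 20 replicates 2 and 3, Cinnamomi Cortex 500 replicate 3, Cinnamomi Cortex 20 replicate 3), and that on KLF6 without Astragali Radix 500 replicate 2 or Astragali Radix 20 replicate 2.

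**Figure D3:**
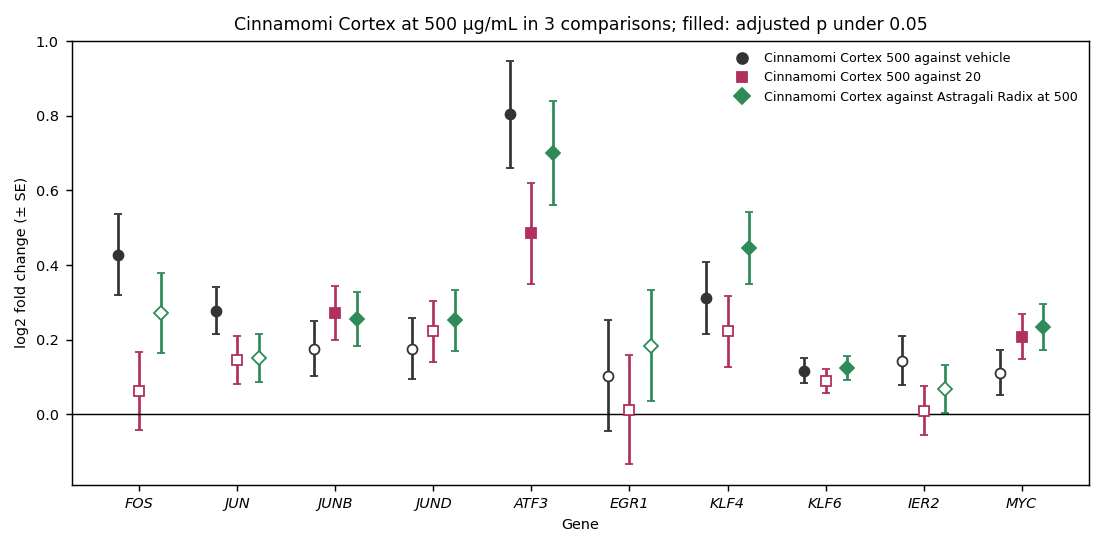
Log2 fold change with its standard error for each member in 3 comparisons of Cinnamomi Cortex at 500 µg/mL: with the vehicle, with 20 µg/mL of the same extract, and with Astragali Radix at 500 µg/mL. Filled symbols passed an edgeR adjusted p under 0.05; ATF3 is filled in all 3, and EGR1 and IER2 in none.

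Other genes of the same programme, from lists chosen with earlier results known, were read beside the members. Of 19 tested other immediate early genes, 5 were higher and 1 lower in Cinnamomi Cortex 500 against the vehicle, with a list median of 0.18. NR4A1, an orphan nuclear receptor, was higher by 0.44 (SE 0.09, edgeR adjusted p = 0.00023) and DUSP1, a phosphatase that switches off MAP kinases, by 0.43 (SE 0.14, edgeR adjusted p = 0.025). Against Astragali Radix 500, 7 of the 19 were higher and none lower, led by NR4A1 (0.57) and NR4A2 (0.41). Of 10 tested other AP-1 subunits and partners, 2 were higher and 1 lower against the vehicle, MAFK by 0.27 and BATF2 by −0.75, and against Astragali Radix 3 were higher, with FOSL1 at 0.42, and 1 lower, BATF2. Of 14 upstream factors and kinases, 2 were higher against the vehicle, the ribosomal S6 kinase RPS6KA1 (0.29) and the CArG box factor SRF (0.21), and 2 lower.

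Genes that AP-1 and MYC are known to act on were mixed. Of 10 tested AP-1 target genes, 2 were higher in Cinnamomi Cortex 500 than in the vehicle and 1 lower, the cornified envelope gene IVL at −1.46. From 20 to 500 µg/mL 5 of the 10 rose, with SPP1, osteopontin, at 1.13, and IVL fell by 1.58 on the log2 scale. Against Astragali Radix 5 were higher, SPP1 by 1.59 and the urokinase receptor PLAUR by 0.38, and none lower. Of 19 tested MYC target genes, 3 were higher against the vehicle, among them ODC1 (0.23), the first enzyme of polyamine synthesis, and the lactate dehydrogenase LDHA (0.19), and none lower, and 3 rose with dose, with HSPE1 at 0.30. Of 10 MYC network partners 1, MXI1 (0.17), was higher against the vehicle, and 3 rose with dose, MAX (0.25) and MXI1 (0.21) among them. Of the 6 other KLF genes 3 were higher against the vehicle, KLF9 by 0.83 and KLF16 by 0.23, and against Astragali Radix 2 were, KLF9 (0.80) and KLF5 (0.24). Of 8 genes driven by NF-kB, chemokines for the most part, 3 were higher against the vehicle, CCL20 by 1.21 and CXCL1 by 0.93, with a list median of 0.43. In Sagunja-tang 7 of the 8 were higher at each dose, with CCL20 at 5.08 and CXCL1 at 4.02 at 500 µg/mL. In Cnidii Rhizoma 500 and Samul-tang 500, 1 of the 8 was higher, CXCL8 by 0.42 and 0.40. These lists are described by counts and medians, with no test of a list.

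Both formulae gave calls of both signs against the vehicle, and here treatment and sample-code set cannot be told apart by the groups alone, because every formula library is in the second set and every vehicle library in the first. Mitochondrial genes took 7.09% to 8.99% of counts in the formula libraries and 10.2% to 13.2% in the vehicle, whose part in the results was not tested. Sagunja-tang at 500, 100 and 20 µg/mL had 1, 2 and 2 members higher and 0, 1 and 1 lower, where 20.2%, 16.6% and 18.5% of genes were called. Samul-tang at those doses had 1, 1 and 0 higher and 1, 2 and 1 lower, where 18.5%, 21.9% and 11% were called. With each member being 1 of 10, the called share of members lay above that of all genes in Sagunja-tang 100 and 20 and Samul-tang 500 and 100, and below it in Sagunja-tang 500 and Samul-tang 20.

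ATF3 was called higher in 5 of the 6 formula groups. It read 2.40, 3.24 and 2.87 CPM in Sagunja-tang 500, 3.20, 2.83 and 3.45 CPM at 100 and 2.76, 3.08 and 2.69 CPM at 20, all above the vehicle's 1.86 to 2.20 CPM. The log2 differences were 0.48 (SE 0.15), 0.63 (SE 0.14) and 0.48 (SE 0.15), with edgeR adjusted p = 0.016, 0.0033 and 0.019. In Samul-tang ATF3 was higher by 0.64 (SE 0.14, edgeR adjusted p = 0.002) at 500 and 0.53 (SE 0.15, edgeR adjusted p = 0.009) at 100, and at 20 it differed by 0.37 (SE 0.15, edgeR adjusted p = 0.094). MYC was lower in 4 formula groups: by −0.20 (edgeR adjusted p = 0.02) and −0.27 (0.0027) in Sagunja-tang 100 and 20, and by −0.26 (0.003) and −0.23 (0.015) in Samul-tang 100 and 20, each with SE 0.06. MYC read 243.0, 252.6 and 241.4 CPM in Sagunja-tang 20, below every vehicle library (288.1 to 303.8 CPM). JUNB was lower by −0.21 and −0.20 in Samul-tang 500 and 100 (edgeR adjusted p = 0.038 and 0.05 as rounded), IER2 higher by 0.25 in Sagunja-tang 100 (0.0096), and KLF6 higher by 0.09 (SE 0.03) in Sagunja-tang 20.

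Of these calls, ATF3 in Sagunja-tang 100 and Samul-tang 500 and MYC in Sagunja-tang 20 and Samul-tang 100 held without each of their 6 libraries. The others depended on single libraries. Without vehicle replicate 3 the calls on ATF3 in Sagunja-tang 500, Sagunja-tang 20 and Samul-tang 100, on IER2 and KLF6, and on MYC in Sagunja-tang 100 and Samul-tang 20 were lost. Without vehicle replicate 2 those on ATF3 and KLF6 in Sagunja-tang 20, on both MYC results just named and on both JUNB results were lost, and without vehicle replicate 1 those on JUNB and KLF6. Treated libraries whose omission ended a call were Sagunja-tang 500 replicate 2 (ATF3), Sagunja-tang 100 replicate 3 (IER2 and MYC), Sagunja-tang 20 replicate 2 (ATF3) and replicates 1 and 3 (KLF6), Samul-tang 500 replicates 1 and 2 (JUNB), Samul-tang 100 replicates 1, 2 and 3 (JUNB) and Samul-tang 20 replicate 2 (MYC).

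With the sample-code set as the 1 added term, no member was called in any formula group. The ATF3 differences then ran from 0.27 to 0.54 (edgeR adjusted p from 0.10 to 0.79), those of MYC from −0.12 to 0.01, and JUNB in Samul-tang 500 was at −0.09. With the replicate number as a further term, ATF3 was called higher in Sagunja-tang 100 (0.65, edgeR adjusted p = 0.048) and Samul-tang 500 (0.67, edgeR adjusted p = 0.024), FOS in Sagunja-tang 500 (0.32, edgeR adjusted p = 0.044) and EGR1 in Sagunja-tang 100 (0.32, edgeR adjusted p = 0.048), and MYC and JUNB in none. The share of all genes called in these fits is not given here, so the members' lost calls have no background beside them. The set term is estimated from Astragali Radix and Cinnamomi Cortex, whose 6 groups hold libraries of both sets. In those groups the first-set library had the highest MYC level in 6 of 6, and the highest JUNB and JUND levels in 5 of 6 each. In the other 13 groups, each within 1 set, the library numbered 1 was highest for JUND in 7 and for MYC and JUNB in 5 each, and lowest in 3, 6 and 2. Between the formulae, which share a set, no member was called at 500 (0.318% of genes called), 100 (0.251%) or 20 µg/mL (0.238%), and no member had an unadjusted p under 0.05.

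Astragali Radix, Cnidii Rhizoma and Rehmanniae Radix Preparata gave no member call against the vehicle at any dose in the fit without a replicate term. With the replicate number as a block FOS was called higher in 5 of these 9 comparisons, Cnidii Rhizoma 500 and 20, Rehmanniae Radix Preparata 500 and 20 and Astragali Radix 20, by 0.26 to 0.35 (edgeR adjusted p from 0.0074 to 0.046). The shares of all genes called with the block are not given here. Without it the shares at 500, 100 and 20 µg/mL were 1.48%, 0.147% and 0.293% for Cnidii Rhizoma. They were 0.636%, 0.208% and 0.434% for Rehmanniae Radix Preparata and 3.58%, 2.51% and 1.39% for Astragali Radix. Between 0 and 5 members had an unadjusted p under 0.05 in each of these 9 comparisons. The ATF3 differences ran from 0.10 (SE 0.15) in Astragali Radix 500 to 0.50 in Cnidii Rhizoma 20 (SE 0.14) and Rehmanniae Radix Preparata 20 (SE 0.15), with an edgeR adjusted p of 0.18 for both of the latter. Those of FOS ran from 0.16 (SE 0.11) to 0.35 (SE 0.11). EGR1 came to its highest mean in Rehmanniae Radix Preparata 500, at 32.2, 42.3 and 44.7 CPM against 28.4, 30.0 and 38.3 CPM in the vehicle, overlapping groups that differed by 0.31 (SE 0.15, edgeR adjusted p = 0.52). With the set term and the replicate block together EGR1 was called there (0.30, SE 0.07, edgeR adjusted p = 0.0076) and in Astragali Radix 100 and 20 (0.32 in both).

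At matched doses Cnidii Rhizoma and Rehmanniae Radix Preparata, which share a set, differed in 1 member. KLF6 at 500 µg/mL read 100.9, 104.5 and 98.7 CPM in Cnidii Rhizoma and 111.9, 115.7 and 112.9 CPM in Rehmanniae Radix Preparata, lower without overlap by −0.16 (SE 0.03, edgeR adjusted p = 0.016), where 0.147% of genes were called. That call was lost without Cnidii Rhizoma 500 replicate 1 or 3 or Rehmanniae Radix Preparata 500 replicate 2 or 3. No gene at all was called between them at 100 or 20 µg/mL (0% each, and 0 members at an unadjusted p under 0.05). From 20 to 500 µg/mL no member was called in the 5 extracts other than Cinnamomi Cortex, where the shares of genes called were 0.428% (Cnidii Rhizoma), 0.177% (Rehmanniae Radix Preparata), 0.0734% (Astragali Radix), 0.00611% (Sagunja-tang) and 0.141% (Samul-tang). KLF6 came nearest, in Cnidii Rhizoma, where its groups did not overlap and the difference was −0.125 (SE 0.03, edgeR adjusted p = 0.071); it was called lower by DESeq2 (adjusted p = 0.026) and by edgeR with the set term (adjusted p = 0.046). Neither of the other 2 interactions called a member (0.0122% of genes for Cnidii Rhizoma and Rehmanniae Radix Preparata, 0% for the formulae).

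Within groups the members differed in how far the 3 libraries spread. The median coefficient of variation over the 19 groups was 1.7% for KLF6, between 4.0% and 5.8% for JUNB, JUN, MYC, IER2 and JUND, 7.6% for KLF4, 9.4% for FOS, 9.6% for ATF3 and 11.8% for EGR1. Part of that spread followed the replicate number in the labels. The library numbered 3 had the highest FOS in 17 of 19 groups and the highest EGR1 in 17 of 19, and JUN in 15. The library numbered 1 had the lowest EGR1 in 15 of 19 groups and the lowest FOS in 13. In Samul-tang 100 EGR1 read 24.2, 29.7 and 36.1 CPM in libraries 1 to 3. The labels do not say what a number shares between groups. KLF4 and JUND leaned the other way, with the library numbered 1 highest in 13 and 12 of 19 groups, and in 9 and 7 of the 13 whose libraries share a set.

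**Figure D4:**
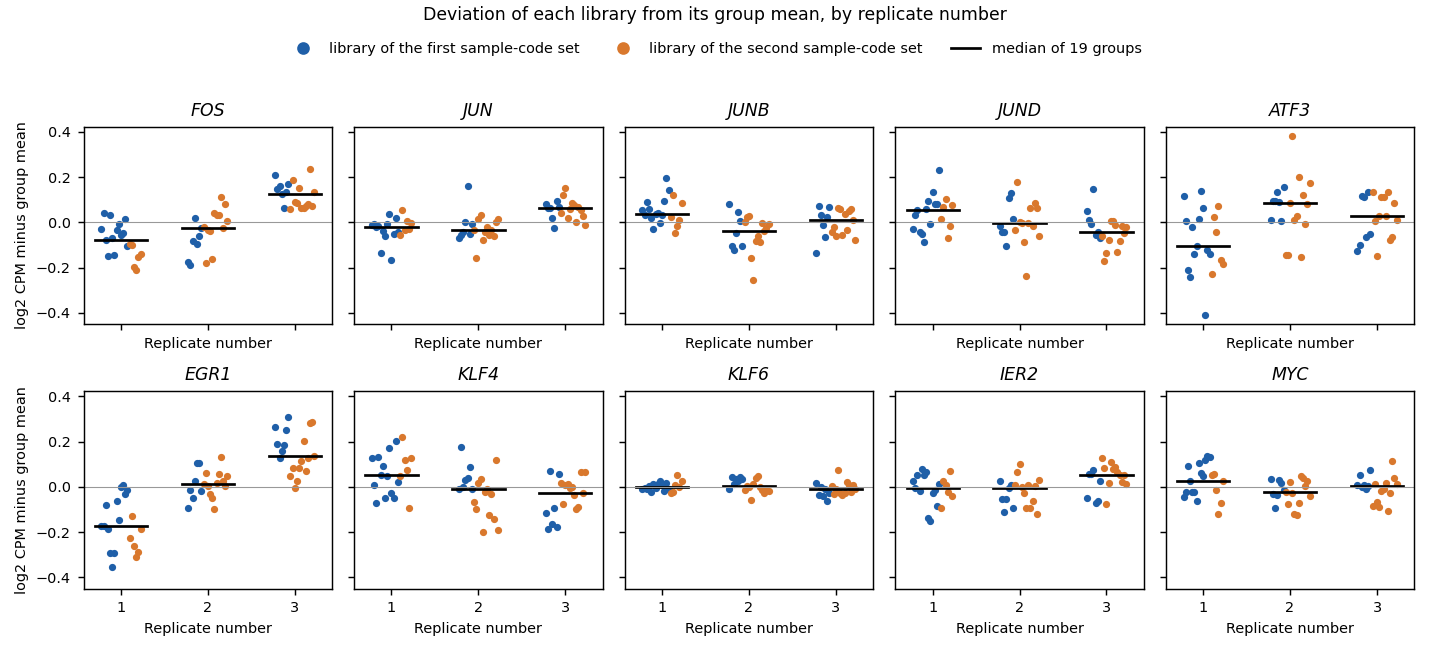
Log2 CPM of each library minus the mean of its group, by replicate number, for each member, with a line at the median of 19 groups and colour for the sample-code set. FOS and EGR1 lie highest in libraries numbered 3 in both sets, while KLF6 barely spreads.

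Across the 57 libraries, after the mean of each set was subtracted, the members fell into loose pairs rather than 1 block. Pearson's r was 0.66 between FOS and EGR1, 0.64 between JUNB and MYC, 0.58 between FOS and JUN and 0.54 between JUNB and JUND, while EGR1 and KLF4 had −0.15. These correlations are descriptions over libraries that share groups, replicate numbers and depth. Among the genes most like each member, of all tested, were DUSP6 (0.68), EGR1 and ENTR1 for FOS, PPFIBP2 (0.76), FLOT1 and DENND2D for EGR1, PHLDA2 (0.76) and PMEPA1 for JUNB, and RAB5C (0.86), GAPDH (0.85) and BMP4 (0.83) for MYC. For ATF3 they were BPNT1 (0.56), the asparagine synthetase ASNS and ACSL1, for KLF4 GNB1 (0.70) and ITGA3, and for KLF6 MUC13 (0.69), PAG1 and HDAC5. For JUN they were ZMAT5 (0.63), HMGXB4 and RPS6KA1, for JUND PTMS (0.73), HNRNPUL1 and EMD, and for IER2 TLNRD1 (0.59), TOR4A and TMEM191A.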

How the data were processed

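RNA was sequenced from HT29 cells in 60 libraries. The authors deposited expected counts per gene, made with FastQC 0.11.9, Trim Galore 0.6.5, STAR 2.7.3a and RSEM 1.3.3 on GRCh38, per the submitters' processing notes. Neither the gene annotation's release nor the counting strand is given in the sources used here, so reads from overlapping genes may be shared. Of 273 count columns, 213 belong to no sample here and were not used. Values were rounded to whole numbers, since 8.8% were not whole.

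Ensembl identifiers were matched to symbols for 56558 genes through a names table and 497 through GENCODE 29, and 3620 had none. Counts were normalised by TMM in edgeR 4.0.16 (R 4.3.3), filtered with filterByExpr at a minimum count of 10, and fitted with 1 coefficient per group over the 57 libraries of groups with 3. The 36 comparisons were each adjusted by Benjamini-Hochberg over 16356 genes. TPM used exon lengths, present for 16249 of these. Alternatives were RLE size factors, no filter, DESeq2 1.42.0, a sample-code set term, a replicate block, only the groups compared, and each library left out; the last combination, set term with replicate block, was chosen after seeing the data. The fitting script was tested on simulated data. Genes named were the members, up to 2 called genes with the largest change per list and comparison described, and the 3 most correlated genes for each member; a few genes that this rule or a list would name are not reported here. Members and lists were chosen with earlier results of these data known. DMSO is given as 0.1% in the sample labels and as 2% in the series' design text, and the files do not settle it. Intervals of counting error are not shown, and depth is given as library totals. MYC's promoter is not shown.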

Additional observations from a re-analysis of the deposited data

Results flagged for a closer look

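The change with dose in Cinnamomi Cortex less that in Astragali Radix was tested as an interaction (edgeR quasi-likelihood, Benjamini-Hochberg adjusted). ATF3, at 0.75 on the log2 scale, and KLF6, at 0.19, passed, so in this fit their dose effect differed between the extracts. DESeq2 did not call ATF3. Both calls were lost without the filter and with only the groups compared. The ATF3 call was also lost without any of 6 of the 12 libraries, and that on KLF6 without either of 2.

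The 3 Paeoniae Radix libraries, 1 at each dose and in no test, held ATF3 at 3.03 CPM at 500 µg/mL, 2.76 CPM at 100 µg/mL and 2.77 CPM at 20 µg/mL. All 3 lay above every vehicle library (1.86 to 2.20 CPM) and inside the range of the other treated libraries (1.63 to 3.93 CPM).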

How the results depend on the processing

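Against the vehicle, where 12 member results were higher and 6 lower, the higher count was 23 with the replicate block and 24 with the sample-code set term and the replicate block together, and the lower count was 10 without the filter, 10 with only the groups compared, and 0 with the set term, with or without the block. For 500 against 20 (3 higher, 0 lower), DESeq2 and the set term each gave 5 higher, the set term with the block 6 and only the groups compared 1, and DESeq2, the set term, the replicate block and the set term with the block each gave 1 lower, KLF6 in Cnidii Rhizoma. Between extracts (6 higher, 1 lower), only the groups compared gave 1 higher and 0 lower, and no filter 0 lower. Of the 2 interaction calls DESeq2 kept 1, and no filter and only the groups compared 0. For Cinnamomi Cortex 500 against the vehicle the 5 higher members were 8 with the set term, 9 with the set term and block and 3 with only the groups compared. Its 3 members higher than at 20 µg/mL were 5, 6 and 1 in those fits and 5 in DESeq2, and its 6 above Astragali Radix were 1 with only the groups compared. That last fit estimates the spread from fewer libraries. The cause of the other changes was not tested. Shares of all genes called are given only for the fit without added terms, so these counts have no background beside them. No member result that was called changed sign under any alternative run.

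With 1 library left out, the counts ran from 7 to 14 higher and 2 to 7 lower against the vehicle, 1 to 4 higher for 500 against 20, 3 to 6 higher and 0 to 1 lower between extracts, and 1 to 2 for the interaction. For Cinnamomi Cortex 500 they ran from 3 to 5 against the vehicle, 1 to 4 against 20 µg/mL and 3 to 6 against Astragali Radix. Of 30 called member results, 9 held without each library in turn and 21 were lost without at least 1. Over all tested genes together, the replicate numbers did not pair the samples in most comparisons. All 3 same-number correlations passed 0.1 in 1 of 33, Cinnamomi Cortex against Astragali Radix at 100 µg/mL. There 0 members were called with or without the replicate block. All 6 libraries correlated best with their own number in 3 of the 33. Single members did follow the number: library 3 had the highest FOS and the highest EGR1 in 17 of 19 groups each. Depth limits ATF3 most, at 37 to 113 counts a library.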

Other observations

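In the same 3 Paeoniae Radix libraries, which were scaled together with the other 57, MYC read 281.4 CPM (500 µg/mL), 280.1 CPM (100 µg/mL) and 217.7 CPM (20 µg/mL), below every vehicle library (288.3 to 304.0 CPM) at all 3 doses. JUND stood at 37.8, 39.9 and 31.8 CPM, also below every vehicle library (40.9 to 43.3 CPM). FOS, JUN and IER2 lay above every vehicle library at 2 of 3 doses, and EGR1 at none. With 1 library a dose these values have no replicate check. Paeoniae Radix libraries have sample codes outside both sets.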
